A study of Homo sapiens with 23 samples.

Results

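MXRA5 and DPY19L1 were followed in every RNA-seq library of human thalamus organoids (ThOs), 3-dimensional cultures that are steered towards the thalamus, the relay region of the forebrain. They are 2 of the 9497 genes in the tables. They were chosen because their values changed in opposite directions between libraries labelled WT and KO, and because DPY19L1 came back in libraries labelled KO+cJun while MXRA5 did not. The genotype differences of these 2 genes are therefore given as a description without a test, and tests are kept for the day of culture, which the choice did not use, and for other genes.

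All ThOs were grown from H1, an established human embryonic stem cell line. WT ThOs came from unedited cells. KO ThOs came from cells edited with CRISPR/Cas9 at c-JUN (JUN in the tables), which encodes a DNA-binding partner within the AP-1 family of transcription factors. KO+cJun ThOs, called OE in the study, came from the knockout with a doxycycline-driven (tet-on) plasmid that expresses c-JUN again. The study made 2 knockout clones, and the labels do not say which clone a KO or KO+cJun library came from, nor whether WT and KO cultures were given doxycycline. All 3 genotypes went through the same induction, first with the BMP and TGF-beta pathway inhibitors LDN-193189 and SB431542, then with BMP7 and the MEK inhibitor PD325901. At both day 25 and day 30, 2 libraries of 3 pooled ThOs were made per genotype, so 12 libraries form 6 groups. Another 9 ATAC-seq and 2 CUT&Tag samples of the series were not analysed here.

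MXRA5 (matrix remodelling associated 5, also called adlican) encodes a very large secreted protein built of leucine-rich repeats and immunoglobulin-like domains, and belongs to the extracellular matrix, the protein mesh that surrounds cells. DPY19L1 encodes an enzyme of the endoplasmic reticulum membrane that attaches a single mannose to tryptophan residues of secreted and membrane proteins, a modification called C-mannosylation. Its best known acceptors are thrombospondin type 1 repeats, which occur in axon guidance receptors such as the UNC5 family, in R-spondins and in matrix proteases. The family is named after dpy-19 of the nematode, a gene needed for directed migration of neuroblasts.

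The sequences just before a RefSeq start of both genes are shown because c-JUN acts through DNA: AP-1 dimers are known to bind the motif TGANTCA. MXRA5 (ENSG00000101825) lies on the minus strand of chromosome X, from 3308565 to 3346652. DPY19L1 (ENSG00000173852) lies on the minus strand of chromosome 7, from 34927292 to 35038271. Both positions are on GRCh38. The 250 bases before the RefSeq start (GRCh38.p14) are written 5′ to 3′ on the strand of the gene, with capitals on the stretches of 7 bases that come closest to TGANTCA. They cover chrX:3346653-3346902 for MXRA5 and chr7:35038042-35038291 for the outer of 2 DPY19L1 starts.
MXRA5: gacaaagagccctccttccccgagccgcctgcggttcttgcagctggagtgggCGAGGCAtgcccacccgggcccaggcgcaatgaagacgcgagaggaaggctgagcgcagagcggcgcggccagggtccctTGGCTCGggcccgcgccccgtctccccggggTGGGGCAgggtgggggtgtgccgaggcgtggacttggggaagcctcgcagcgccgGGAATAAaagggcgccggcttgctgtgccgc
DPY19L1: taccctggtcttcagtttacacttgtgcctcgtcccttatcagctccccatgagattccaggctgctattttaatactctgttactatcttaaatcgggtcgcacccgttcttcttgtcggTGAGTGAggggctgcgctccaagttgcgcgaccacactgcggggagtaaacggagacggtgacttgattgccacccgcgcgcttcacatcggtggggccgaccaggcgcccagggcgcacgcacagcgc
Neither window held TGANTCA, which reads the same on both strands. It was found in 6.57% of 35116 RefSeq promoters of this length. The related 8-base motif TGACGTCA was also absent from both windows and was found in 1.65% of all promoters. In DPY19L1 the closest stretch was TGAGTGA, 129 to 123 bases before the start, with 1 base differing, and 56.2% of all promoters held a stretch at least as close. In MXRA5 the closest stretches differed at 2 bases, at 4 places, and 98.8% of promoters came at least as close. The MXRA5 window was 72.4% G or C and the DPY19L1 window 58%, against a median of 58% over all promoters. The window of the inner DPY19L1 start, not printed, was 82.8% G or C, and its closest stretches differed at 3 bases, at 15 places. RefSeq puts the outer start inside the span that the tables give for DPY19L1, so most of the printed window lies within that span. These windows say nothing of sites elsewhere, and no binding data were used here.

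Expression is given as the deposited normalized value, which runs from 11 to 9910 around a median of 106 in every library. The number of reads behind it is unknown. The 2 KO libraries of a day were less alike than other replicates: their Spearman correlation over genes was 0.821 at day 25 and 0.769 at day 30, against 0.936 to 0.959 in the other groups. Between the KO replicates 17.4% (day 25) and 21.5% (day 30) of genes lay at least 2-fold apart, against 1.75% to 4.45% elsewhere, and KO day 30 replicate 2 stood farthest from the remaining libraries. For MXRA5 and DPY19L1, the differences between KO and another genotype averaged over the days are therefore also given without that library. JUN, the targeted gene, had values of 128 to 162 in libraries labelled WT, 196 to 353 in those labelled KO and 202 to 362 in those labelled KO+cJun. The transcript was thus not lower in libraries labelled KO (log2 difference 0.77 ± 0.23 SE, limma adjusted p = 0.197). Nor was it higher on average in KO+cJun than in KO (means 250 and 254.75), so the added c-JUN was not visible in these values. By RT-qPCR the study found no c-JUN transcript in KO neural progenitor cells and cerebral organoids. By western blot it found no c-JUN protein in the KO cell lines, and c-JUN protein in KO cells with the plasmid and doxycycline. These blots were reported for cell lines, not for the ThOs sequenced here. Directions below are those of the labels. A value for the whole gene does not show whether an edited transcript still codes for protein. Of 11 thalamus markers fixed for checking the tissue, 5 were in the tables. TCF7L2, a transcription factor used to mark the thalamus, had values of 128 to 246 in WT, 109 to 341 in KO and 123 to 465 in KO+cJun, so the 3 genotypes overlapped.

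MXRA5 was high only in the unedited organoids. Its value in WT was 324 and 148 at day 25 and 211 and 180 at day 30. In KO it was 46 and 40 at day 25 and 62 and 52 at day 30. In KO+cJun it was 37 and 49 at day 25 and 24 and 20 at day 30. Every WT library thus stood above all 8 libraries of the edited genotypes, and KO and KO+cJun overlapped at day 25 but not at day 30. In bulk organoids, fewer cells that express a gene and less RNA per cell cannot be told apart.

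By group, MXRA5 averaged 236 ± 124 (SD, n = 2) in WT, 43 ± 4.24 in KO and 43 ± 8.49 in KO+cJun at day 25. At day 30 the means were 195.5 ± 21.9, 57 ± 7.07 and 22 ± 2.83. The mean in WT was 5.49 times that in KO at day 25 and 3.43 times at day 30. The WT replicates at day 25 were themselves 1.13 apart on the log2 scale, farther than 97.0% of genes in that pair, so the size of the difference is loosest there. KO minus WT was -2.33 (log2) on day 25 and -1.76 on day 30, with a mean over the days of -2.04 ± 0.26 (SE). That was the 3rd lowest of 9497 genes. Without KO day 30 replicate 2 it was -1.98, and without WT day 25 replicate 1, the library with the highest value, it was -1.76.

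MXRA5 did not return towards WT in the libraries labelled KO+cJun. On the log2 scale KO+cJun minus KO was -0.01 for day 25 and -1.33 for day 30, a mean of -0.67 ± 0.26 (SE), and -0.73 without KO day 30 replicate 2. The day 30 mean in KO was 2.59 times that in KO+cJun. Relative to WT, KO+cJun stood at -2.34 at day 25 and -3.10 at day 30. The mean over the days, -2.72 ± 0.26, was the lowest of all 9497 genes. KO against WT and KO+cJun against WT share the WT libraries, so these 2 differences are not independent.

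DPY19L1 showed the other course, high only in KO. Its value in WT was 182 and 183 at day 25 and 176 and 143 at day 30. In KO it was 412 and 366 at day 25 and 619 and 524 at day 30. In KO+cJun it was 108 and 140 at day 25 and 150 and 94 at day 30. All 4 KO libraries stood above the other 8, and KO+cJun lay below both WT libraries at day 25 and overlapped with WT at day 30.

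By group, DPY19L1 averaged 182.5 ± 0.707 (SD, n = 2) in WT, 389 ± 32.5 in KO and 124 ± 22.6 in KO+cJun at day 25. At day 30 the means were 159.5 ± 23.3, 571.5 ± 67.2 and 122 ± 39.6. The KO mean was 2.13 times the WT mean at day 25 and 3.58 times at day 30. KO minus WT on the log2 scale was 1.09 and 1.84, a mean of 1.46 ± 0.18 (SE), the 17th highest of 9497 genes. Without KO day 30 replicate 2 the mean difference was 1.52.

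In KO+cJun the DPY19L1 value returned, with group means below WT on both days. KO+cJun minus KO was -1.65 at day 25 and -2.25 at day 30, with a mean of -1.95 ± 0.18 (SE), and -2.01 without KO day 30 replicate 2. Set against KO minus WT, 152% of the day 25 difference and 123% of the day 30 difference was undone. KO minus WT and KO+cJun minus KO share the KO libraries with opposite sign, and the gene was chosen for its return. These shares are therefore a description only. What was left, KO+cJun minus WT, was -0.57 at day 25, -0.41 at day 30 and -0.49 ± 0.18 over the days. The last was the 590th lowest of 9497 genes. Over both days the libraries overlapped (94 to 150 in KO+cJun, 143 to 183 in WT). For MXRA5 the share undone was -0.44% at day 25 and -75.8% at day 30, the negative sign meaning a move farther from WT. Over the 12 libraries the 2 genes had a Pearson r of 0.006, given as a description of points that share groups.

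**Figure D1:**
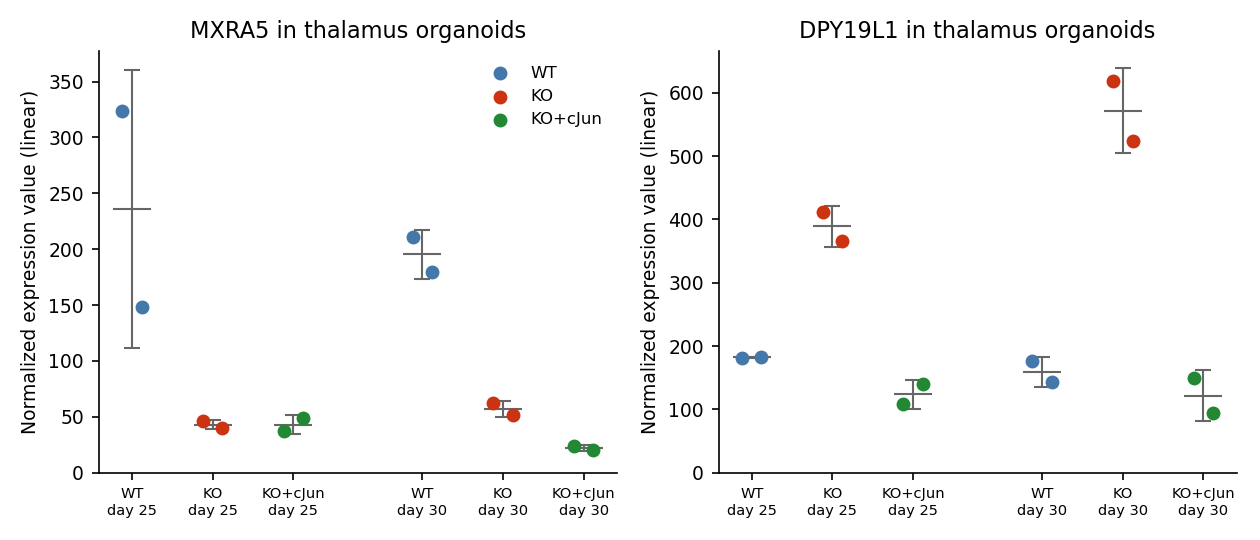
Normalized expression value (linear axis from 0) of MXRA5 (left) and DPY19L1 (right) in each of 12 ThO libraries, with 1 point per library and a grey bar for the mean ± SD of each group of 2. MXRA5 sits between 148 and 324 in WT and at 62 or below elsewhere; DPY19L1 sits between 366 and 619 in KO and at 183 or below elsewhere.

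The separation of the genotypes was then set against that of all genes, as a description, since the members were chosen for it. All 4 KO libraries lay below all 4 WT libraries for 298 genes (3.14%), MXRA5 among them, and above them for 260 genes (2.74%), DPY19L1 among them. KO+cJun lay below all WT libraries for 412 genes (4.34%), MXRA5 among them, and below all KO libraries for 428 (4.51%), DPY19L1 among them. KO and KO+cJun together lay below WT without overlap for 41 genes (0.432%). KO lay above both WT and KO+cJun without overlap for 122 genes (1.28%). Requiring a log2 difference of at least 1 from WT on both days in both edited genotypes left 3 genes of the MXRA5 kind (0.0316%), which were MXRA5, SPRY1 and TNC. Requiring the same of KO against both WT and KO+cJun left 12 genes of the DPY19L1 kind (0.126%).

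**Figure D2:**
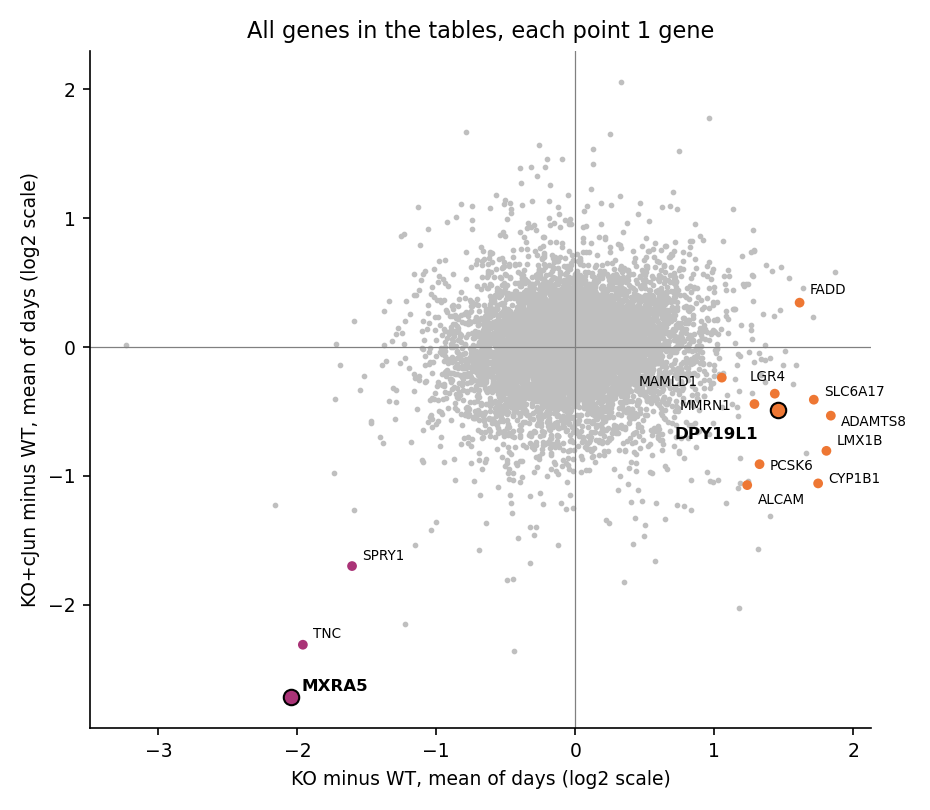
Each point is 1 of 9497 genes, placed by the mean log2 difference over both days of KO minus WT (horizontal) and KO+cJun minus WT (vertical); both axes share the WT libraries. Purple points are the 3 genes at least 2-fold below WT in both edited genotypes on both days and orange points are 11 of the 12 genes at least 2-fold above both others in KO; MXRA5 lies at -2.04 and -2.72 and DPY19L1 at 1.46 and -0.49.

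Ordered by group mean, MXRA5 ran from WT day 25 through WT day 30, KO day 30, KO day 25 and KO+cJun day 25 to KO+cJun day 30. The libraries of WT day 25 and day 30 overlapped, as did those of KO day 25 and KO+cJun day 25, so neither pair is ordered. The step from KO day 30 to KO day 25 was a ratio of 1.33 without overlap. DPY19L1 ran from KO day 30 through KO day 25, WT day 25, WT day 30 and KO+cJun day 25 to KO+cJun day 30, and of the neighbours in this order only the last 2 groups overlapped. WT day 30 also overlapped with KO+cJun day 30. The spread between replicates, pooled over the 6 groups, was 0.37 for MXRA5 and 0.25 for DPY19L1 on the log2 scale, against a median of 0.33 over all genes.

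The day of culture was tested for both genes. Day 30 minus day 25, averaged over the genotypes, was -0.23 ± 0.21 (SE) on the log2 scale for MXRA5 (limma adjusted p = 0.713) and 0.10 ± 0.15 for DPY19L1 (limma adjusted p = 0.834). Limma called 0 of 9497 genes in this contrast at an adjusted p under 0.05 and 2-fold, and 1073 genes (11.3%) had an unadjusted p under 0.05. Within genotypes, MXRA5 stood at -0.17 in WT, 0.40 in KO and -0.93 in KO+cJun, the last with a limma adjusted p of 1. DPY19L1 stood at -0.20 in WT, 0.55 in KO and -0.05 in KO+cJun, with a limma adjusted p of 0.384 in KO. No difference between the days passed the test for either gene.

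Whether the genotype differences changed between the days was tested as an interaction. The KO minus WT difference of DPY19L1 was 0.75 ± 0.37 (SE) larger at day 30 (limma adjusted p = 0.802), and that of MXRA5 was 0.56 ± 0.52 closer to 0 (adjusted p = 0.848). The KO+cJun minus KO difference of MXRA5 was lower at day 30 (coefficient -1.32 ± 0.52 SE, limma adjusted p = 0.848). For DPY19L1 the same coefficient was -0.60 ± 0.37 (limma adjusted p = 0.848). By limma, 0 genes passed adjustment in these interactions, with 535 genes (5.63%) at an unadjusted p under 0.05 for KO minus WT and 511 (5.38%) for KO+cJun minus KO. The larger MXRA5 gap between KO and KO+cJun at day 30 thus did not pass the test of the difference between days.

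**Figure D3:**
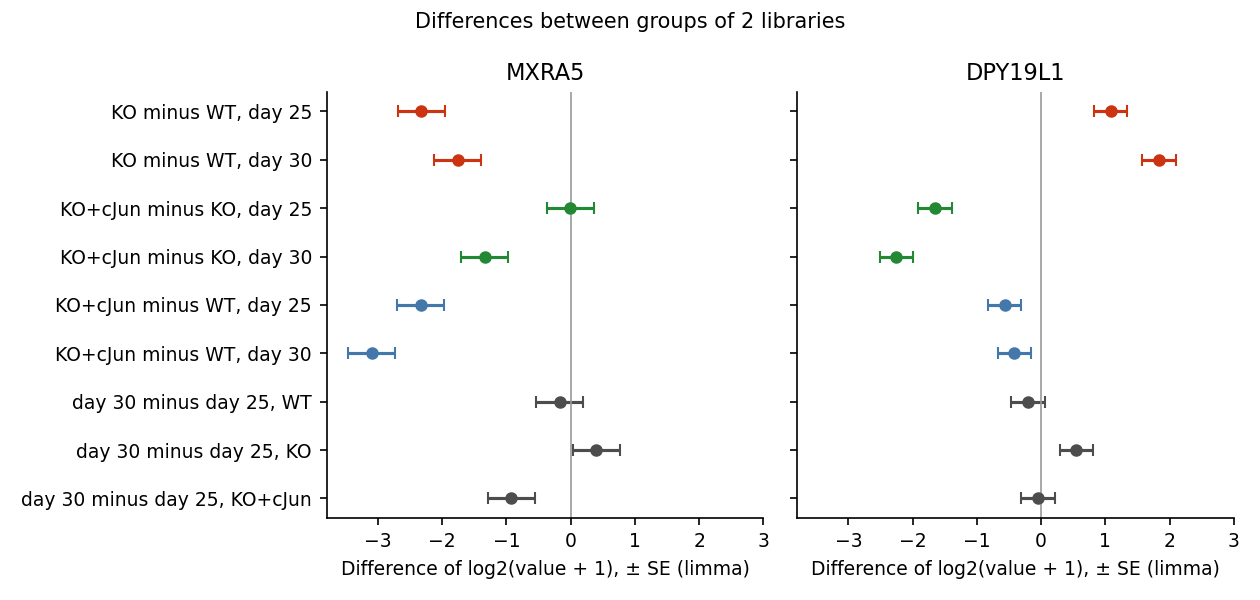
Differences of log2(value + 1) between groups of 2 libraries for MXRA5 (left) and DPY19L1 (right), with points for the estimate and bars for ± 1 SE of the limma fit. Both KO minus WT differences of MXRA5 (-2.33 and -1.76) lie below 0 and both of DPY19L1 (1.09 and 1.84) above; KO+cJun minus KO is -1.65 and -2.25 for DPY19L1, and the 3 day differences of each gene lie between -0.93 and 0.55.

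The relatives of DPY19L1 came next. DPY19L3, another C-mannosyltransferase of the family, had values of 176 to 206 in WT, 126 to 279 in KO and 143 to 200 in KO+cJun. KO minus WT was -0.07 ± 0.23 (SE) on the log2 scale (limma adjusted p = 0.91), and the 3 genotypes overlapped. DPY19L4, a further member of the family, was 71 and 76 in WT at day 25 and 56 and 62 at day 30. In KO it was 40 and 48 at day 25 and 40 and 22 at day 30, and in KO+cJun 66 and 68, then 64 and 58. All 4 KO libraries were lower than the other 8, where those of DPY19L1 were higher. KO lay below all WT libraries in 3.14% of all genes, and the share also below KO+cJun was not counted. The differences, -0.85 ± 0.23 for KO minus WT (limma adjusted p = 0.19) and 0.81 ± 0.23 for KO+cJun minus KO (adjusted p = 0.0785), did not pass the test. DPY19L2 was not analysed here. The tables do not list DPY19L1P1 and DPY19L1P2, 2 pseudogene copies of DPY19L1, or MXRA5Y, the pseudogene copy of MXRA5 on chromosome Y, and how the authors assigned reads shared with such copies is not stated.

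No gene of the machinery around DPY19L1 passed the test. Of 30 listed genes that make the mannose donor or carry other mannose transfers in the endoplasmic reticulum, 24 were in the tables. Their summed value was 1880 to 2096 in WT, 1905 to 2029 in KO and 1877 to 1957 in KO+cJun. A gene was called at a limma adjusted p under 0.05 over all genes and a difference of at least 2-fold. KO against WT over both days had 2 such genes of 9497 (0.0211%), which were MXRA5 and DPY19L1 themselves, chosen by this contrast, so nothing is read from it. KO+cJun against KO had 211 (2.22%), of which 1.05% of all genes were higher and 1.17% lower in KO+cJun. KO+cJun against WT had 15 (0.158%), with 0.116% lower in KO+cJun. At an unadjusted p under 0.05 the 3 contrasts held 15.2%, 22.2% and 8.21% of all genes. None of the 24 mannose genes was called in any of the 3 contrasts. At an unadjusted p under 0.05, 1 was higher and 1 lower in KO than in WT, ALG12 (0.59) and TMTC4 (-0.42), an alpha-mannosyltransferase and an O-mannosyltransferase. By the same measure 2 were higher and 2 lower in KO+cJun than in KO, and 0 higher and 1 lower in KO+cJun than in WT. The median log2 difference was 0.01 for KO minus WT and -0.02 for KO+cJun minus KO, against -0.02 and 0.01 over all genes.

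Proteins with thrombospondin type 1 repeats, the acceptors of C-mannosylation, included genes that changed between KO and KO+cJun. Of 57 listed genes 25 were in the tables, and limma called 1 higher and 2 lower in KO+cJun than in KO, where 2.22% of all genes were called. RSPO2, a secreted R-spondin that amplifies Wnt signals, was 436, 580, 328 and 455 in WT (the 2 libraries of day 25 first, here and below), 26, 28, 112 and 54 in KO, and 1606, 678, 78 and 460 in KO+cJun. It rose by 3.25 on the log2 scale from KO to KO+cJun (adjusted p = 0.00982). ADAMTS8, a secreted metalloprotease, was 26 to 106 in WT, 150 to 405 in KO and 28 to 68 in KO+cJun, and fell by 2.37 (adjusted p = 0.0207). ADAMTS15, a related protease that cleaves proteoglycans, fell by 1.47 (adjusted p = 0.0327). The calls held in 19, 15 and 11 of 21 alternative settings respectively (adjusted p up to 0.0621, 0.113 and 0.158). Those of ADAMTS8 and ADAMTS15 were lost, among others, without KO day 30 replicate 2. In KO against WT and KO+cJun against WT limma called 0 of the 25. At an unadjusted p under 0.05 there were 8 and 6 (15.2% and 8.21% of all genes).

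Genes built like MXRA5, with leucine-rich repeats and immunoglobulin domains, were not called where MXRA5 was low. Of 36 listed genes 20 besides MXRA5 were in the tables. Limma called 0 of them in KO against WT or KO+cJun against WT, with 7 at an unadjusted p under 0.05 in each (15.2% and 8.21% of all genes). In KO+cJun against KO 3 were called, all higher (1.05% of all genes), while 14 of the 20 differences were negative, with a median of -0.19. LRIG1, which restrains growth factor receptors, was 101 to 130 in WT, 54 to 114 in KO and 154 to 244 in KO+cJun, and rose by 1.42 (adjusted p = 0.0117). LRRN1, a neuronal membrane protein, rose by 1.73 (adjusted p = 0.048) and LINGO1, a part of the Nogo receptor complex, by 1.02 (adjusted p = 0.0487). LRIG1 kept its call in 19 of 21 alternatives and lost it without KO+cJun day 25 replicate 1 (adjusted p up to 0.0674). LRRN1 kept its call in 8 (adjusted p up to 0.185) and LINGO1 in 7 (up to 0.225), and both lost it without any of several single libraries. The median of the 20 genes was 0.07 for KO minus WT and -0.04 for KO+cJun minus WT.

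Among matrix genes besides MXRA5, 1 passed the test in KO+cJun against WT. Of 36 listed genes of the extracellular matrix and its remodelling, 19 besides MXRA5 were in the tables. Their summed value was 5521 to 6144 in WT, 4661 to 5241 in KO and 3528 to 4334 in KO+cJun, with no overlap between genotypes. The 17 genes besides SPARC and SPARCL1 summed to 3547 to 4242 in WT, 2234 to 3226 in KO and 2658 to 3232 in KO+cJun. KO and KO+cJun thus overlapped in this sum. These 17 include VCAN, a large proteoglycan that averaged 455 in KO and 877.75 in KO+cJun. The overlap therefore does not place the whole gap in SPARC and SPARCL1. In KO+cJun against WT all 19 differences were negative, with a median of -0.75 on the log2 scale against 0.001 over all genes. Only TNC passed the test at 2-fold (0.158% of all genes did), and 10 of the 19 had an unadjusted p under 0.05 (8.21% of all genes). TNC, which encodes tenascin-C, a matrix glycoprotein of developing brain, was 144, 78, 102 and 139 in WT, 32, 11, 51 and 34 in KO, and 12, 28, 28 and 24 in KO+cJun. KO+cJun minus WT was -2.31 (adjusted p = 0.0467), and the call was lost when any 1 of the 8 WT and KO+cJun libraries was left out (adjusted p up to 0.309). SPARC, a collagen-binding matrix protein, had an adjusted p of 0.0495 with a difference of -0.75, under 2-fold.

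In KO against WT limma called 0 of the 19 matrix genes. The median was -0.28, and 1 had a higher and 7 a lower value at an unadjusted p under 0.05 (15.2% of all genes passed that). HSPG2, the basement membrane proteoglycan perlecan, averaged 271 in WT, 73 in KO and 105.25 in KO+cJun, a KO minus WT difference of -2.16 that did not pass. In KO+cJun against KO, 14 of the 19 differences were negative and 5 positive, with a median of -0.36, and VCAN had the highest at 1.24. In the same contrast SPARCL1, a relative of SPARC, fell by 2.02 (adjusted p = 0.00982). Its mean was 646 in WT, 1082 in KO and 302.5 in KO+cJun, so it followed DPY19L1 rather than MXRA5 in the order of the genotypes.

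Markers of cell types that ThOs can hold are given as measured values beside the 2 genes. Mesenchyme, a usual source of matrix transcripts, was represented by 3 of 11 markers, PDGFRA, PDGFRB and COL1A2, and the other 8 were not analysed here. Their sum was 283 to 502 in WT, 309 to 1120 in KO and 182 to 410 in KO+cJun, so WT, where MXRA5 was highest, overlapped with both others. The roof plate, the dorsal midline that secretes Wnt and BMP signals, was represented by 10 of 12 markers with sums of 1328 to 2231 in WT, 2163 to 3347 in KO and 1414 to 2943 in KO+cJun. In KO against WT 8 of the 10 differences were positive, with a median of 0.91, and 7 were higher and 2 lower at an unadjusted p under 0.05 (15.2% of all genes passed that), but limma called 0. It called 5 of the 10 in KO+cJun against KO (2.22% of all genes): LMX1B (-2.61), MSX1 (-1.47) and WNT1 (-2.48) fell, and WNT8B (1.74) and RSPO2 rose. LMX1B, a homeobox factor of the roof plate, was 76 to 160 in WT, 368 to 525 in KO and 22 to 182 in KO+cJun, the same order as DPY19L1. The MSX1 call held in 9 of 21 alternatives, the others in at least 16.

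Choroid plexus markers (6 of 7 in the tables) summed to 1513 to 4376 in WT, 1261 to 4950 in KO and 1354 to 4182 in KO+cJun. CLDN1, a tight junction protein, fell by 3.20 from KO to KO+cJun (limma adjusted p = 0.00212) and was 146 to 172 in WT, 232 to 460 in KO and 22 to 82 in KO+cJun. It was the only one of the 6 called, and 4 of the 6 differences were positive in this contrast, with a median of 0.17. Progenitor markers (7 of 11) summed to 6344 to 13523 in WT, 3706 to 7275 in KO and 6336 to 8394 in KO+cJun. The highest WT sum held VIM at 9910, the top of the scale, in WT day 25 replicate 1. In every other library VIM was 2670 to 3456. SOX2, a progenitor transcription factor, rose by 1.27 from KO to KO+cJun (limma adjusted p = 0.0429), a call that held in 7 of 21 alternatives (adjusted p up to 0.177). Neuron markers (9 of 10) summed to 6710 to 9119, 7716 to 9982 and 7520 to 10561 in the same order. In KO+cJun against KO limma called 0 of them, and 2 of 9 had an unadjusted p under 0.05 (22.2% of all genes). GAP43, a growth cone protein, had an adjusted p of 0.0121 there with a log2 difference of -0.92, under 2-fold. The neuron sums leaned on MAP2, which was tied at 2674 or 3456 in every library. The thalamus markers (5 of 11) summed to 509 to 801, 371 to 850 and 476 to 1177. Their part in the values of MXRA5 and DPY19L1 was not tested.

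No gene next to the 2 members passed the test. Within 1 Mb of MXRA5 the tables hold PRKX, DHRSX, GYG2, ARSD, ZBED1 and CD99, and within 1 Mb of DPY19L1 HERPUD2-AS1 and SEPTIN7. None of the 8 was called by limma in KO against WT, KO+cJun against KO or KO+cJun against WT. The nearest, PRKX, a protein kinase gene 258 kb from MXRA5, averaged 92.75 in WT, 60.75 in KO and 96 in KO+cJun (KO minus WT -0.67, adjusted p = 0.256). GYG2, a glycogenin 426 kb from MXRA5, averaged 64.25, 98.5 and 60.25 (KO minus WT 0.59, adjusted p = 0.253). SEPTIN7, a cytoskeletal GTPase 763 kb from DPY19L1, averaged 502, 441.25 and 545.5 (KO minus WT -0.23, adjusted p = 0.709). HERPUD2-AS1, an antisense RNA 657 kb from DPY19L1, averaged 43.5, 33 and 39, and whether reads were counted by strand is not stated. The remaining 4 had KO minus WT differences of -0.16 to -0.67 and adjusted p-values of 0.26 to 0.733.

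Genes whose values ran most like MXRA5 over the 12 libraries were CDH18 (Pearson r = 0.903), TNC (0.874), CNTNAP2 (0.854), WSCD1 (0.854) and SPRY1 (0.853). The r describes libraries that share 6 groups and 1 normalization, and it was 0.854 to 0.918 without KO day 30 replicate 2. SPRY1, a feedback inhibitor of growth factor receptor signalling, was 244, 322, 184 and 229 in WT, 76, 96, 98 and 52 in KO, and 148, 82, 50 and 47 in KO+cJun. KO+cJun minus WT was -1.70 (limma adjusted p = 0.0344), lost on leaving out any of 7 of the 8 libraries compared (adjusted p up to 0.204). CDH18, a neuronal cadherin, averaged 138.25 in WT, 88.5 in KO and 54 in KO+cJun, and its KO+cJun minus WT difference of -1.36 (limma adjusted p = 0.0438) was lost on leaving out any of the 8 (adjusted p up to 0.307). CNTNAP2, an axonal adhesion protein of the neurexin family, averaged 2063 in WT, 1292 in KO and 1068 in KO+cJun. CDH18, TNC and SPRY1 were also chosen by their likeness to MXRA5 in the same libraries, so their calls are not independent of it. The lowest r with MXRA5 belonged to SNRPE (-0.857), a spliceosome protein, RNF157 (-0.841), a ubiquitin ligase, and KIF21A (-0.834), a kinesin.

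Genes whose values ran most like DPY19L1 were MMRN1 (r = 0.959), LGR4 (0.948), AP5M1 (0.947), GDPD2 (0.946) and PTPRU (0.926), and all 5 were called lower in KO+cJun than in KO. Without KO day 30 replicate 2 their r was 0.907 to 0.949. MMRN1, which encodes the secreted protein multimerin 1, was 327, 402, 335 and 353 in WT, 944, 688, 852 and 1010 in KO, and 180, 351, 306 and 235 in KO+cJun. It fell by 1.73 from KO to KO+cJun (limma adjusted p = 0.00345) and kept the call in 21 of 21 alternatives. LGR4, a receptor for R-spondins, was 103 to 127 in WT, 173 to 390 in KO and 61 to 152 in KO+cJun, and fell by 1.80 (adjusted p = 0.0166), a call kept in 16 of 21 alternatives (adjusted p up to 0.0786). AP5M1 (a subunit of the AP-5 adaptor complex), GDPD2 (a phosphodiesterase) and PTPRU (a receptor tyrosine phosphatase) fell too, with log2 differences of -1.02, -1.53 and -1.03, each with a limma adjusted p under 0.01. These 5 genes were chosen by their likeness to DPY19L1 in the same libraries, so their calls are not independent of it. The lowest r belonged to EML4 (-0.902), a microtubule-binding protein, ZFTA (-0.878), a zinc finger protein, and SLIT1 (-0.877), an axon repellent. SLIT1 averaged 172.5 in WT, 80 in KO and 327 in KO+cJun, a log2 difference of 2.11 from KO to KO+cJun, whose direction follows from the choice by low r.

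**Figure D4:**
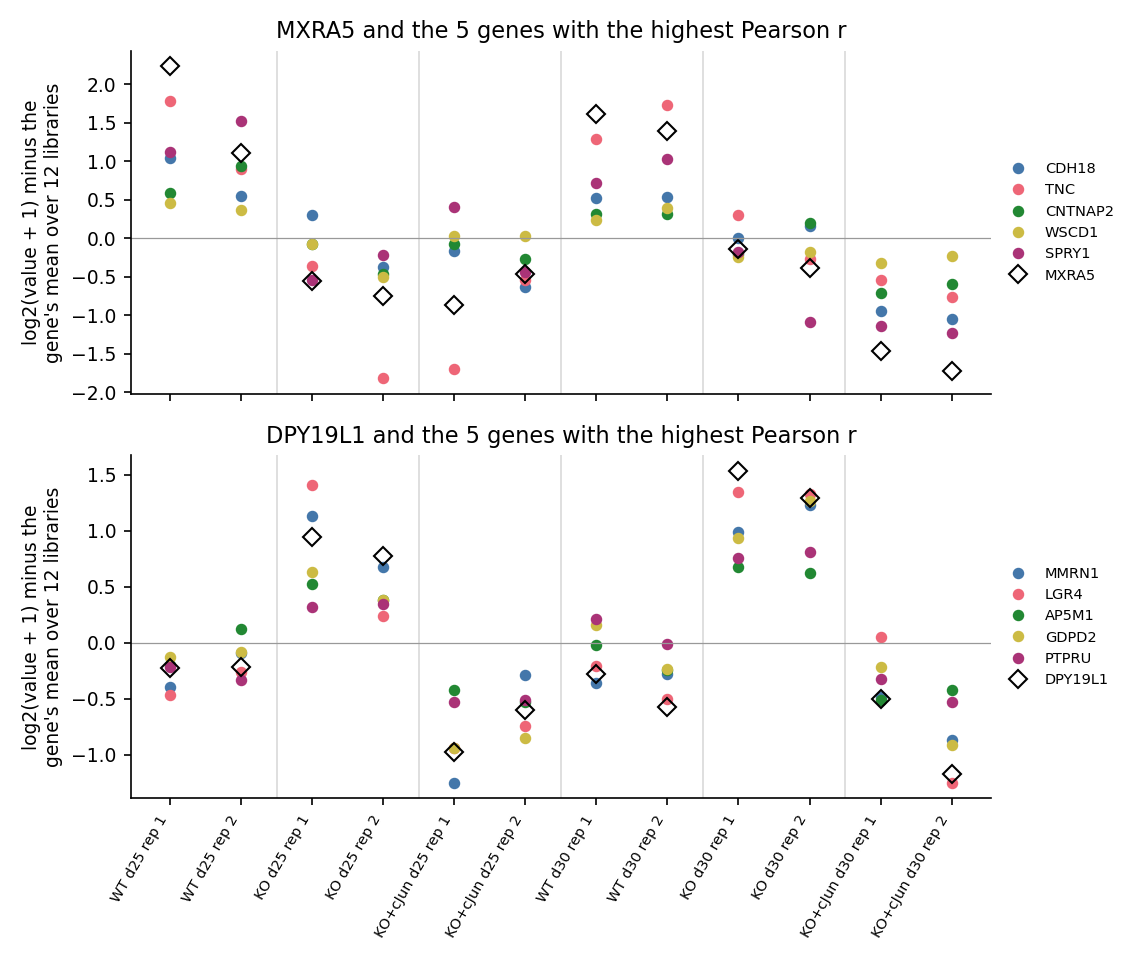
log2(value + 1) minus each gene's own mean over 12 libraries, by library, for MXRA5 (top) and DPY19L1 (bottom, open diamonds) with the 5 genes of highest Pearson r (0.853 to 0.903 for MXRA5, 0.926 to 0.959 for DPY19L1). Vertical lines part the groups of 2 libraries; the upper genes are highest in the 4 WT libraries and the lower genes in the 4 KO libraries.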

How the data were processed

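RNA-seq was measured in 12 ThO libraries, 6 groups of 2. The labels do not say whether replicates are separate cultures, so the spread between them may be technical. Libraries were made from total RNA after rRNA removal with a strand-marking kit. The submitters' processing notes name bcl2fastq, RSEM, Bowtie2 and hg19 without roles, but the positions in the tables are those of GRCh38, since all 9386 symbols found in RefSeq GRCh38.p14 overlapped their RefSeq gene. Annotation, counting and normalization are not given in the sources used here.

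The authors deposited 1 table per library with 1 normalized expression score per gene, rounded to whole numbers. All 12 libraries share the same lowest value (11), median (106) and highest value (9910), so levels are relative to a fixed distribution. Genes low in any library are not listed. The depth is unknown, and precision rests on the spread between libraries.

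The scale of analysis was log2(value + 1), fitted in limma 3.58.1 (R 4.3.3; Python 3.11.15) with an intensity trend and 1 mean per group, leaving 6 residual degrees of freedom. A filter (at least 1 in 2 libraries) removed 0 genes. Fold changes are on the log2(value + 1) scale and understate changes of low genes. P-values are two-sided and adjusted by Benjamini-Hochberg over 9497 genes per contrast. Tests on simulated data of the day contrast used the adjusted p and the 2-fold condition together. They called 39.55% of genes made to differ by a log2 of 1 and 96.6% of those made to differ by 2 (200 genes of 9497). At a log2 of 1 the mean estimate was 1.00, at the 2-fold cut, so 39.55% is not the power of the adjusted p alone.

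The members and all lists were chosen with earlier results of these data known. Named genes were the 2 members, JUN, the DPY19 family, list genes called in a genotype contrast averaged over the days, genes within 1 Mb of a member, and for each member the 5 highest and 3 lowest Pearson r. Genes named outside this rule (ALG12, TMTC4, SPARC, HSPG2, VCAN, GAP43, TCF7L2, mesenchyme markers and the genes of "Other observations") were chosen after their values were seen. Alternatives were other pseudocounts (0.1, 5), no filter, a mean of at least 50, quantile normalization, median centring, a replicate block, library weights, only the libraries compared, and each library left out in turn. Promoter sequences come from RefSeq. ATAC-seq and CUT&Tag samples were not used, and 1 gene is not reported here.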

Additional observations from a re-analysis of the deposited data

Results flagged for a closer look

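From day 25 to day 30 the MXRA5 values moved in opposite directions in KO and KO+cJun. Both KO libraries at day 30 (62 and 52) stood above both at day 25 (46 and 40). Both KO+cJun libraries at day 30 (24 and 20) stood below both at day 25 (37 and 49). How many other genes moved in this way was not counted. The difference between the MXRA5 changes was -1.32 on the log2 scale (limma adjusted p = 0.848, with 2 libraries per group). It fails the correction, so the changes were not shown to differ.

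The DPY19L1 values moved in opposite directions in KO and WT. Both KO libraries at day 30 (619 and 524) stood above both at day 25 (412 and 366). Both WT libraries at day 30 (176 and 143) stood below both at day 25 (182 and 183). Here too, other genes with such moves were not counted. The difference between the DPY19L1 changes was 0.75 on the log2 scale (limma adjusted p = 0.802). It also fails the correction, so these changes were not shown to differ.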

How the results depend on the processing

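The genotype differences of MXRA5 and DPY19L1 averaged over the days kept their sign and moved by less than 1 SD of the replicates in all 21 alternatives. Several of these settings could not move them. The filters, median centring, block, weights and only the libraries compared gave the same estimates in these groups of equal size. Leaving out a library of a genotype not compared also left the estimate unchanged. With 1 library left out, KO minus WT ranged from -2.32 to -1.76 for MXRA5 and from 1.39 to 1.54 for DPY19L1, KO+cJun minus KO from -0.77 to -0.57 and from -2.12 to -1.78, and KO+cJun minus WT from -2.997 to -2.43 and from -0.66 to -0.32. No day difference or interaction of the 2 genes passed the threshold in any alternative. Differences near 0 changed sign with a library left out: DPY19L1 day 30 minus day 25 over genotypes ranged from -0.011 to 0.21 and in KO+cJun from -0.38 to 0.28, MXRA5 in WT from -0.73 to 0.39 (0.39 without WT day 25 replicate 1), and the DPY19L1 interaction for KO+cJun minus WT from -0.18 to 0.49.

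The counts of called genes depended on the libraries. With 1 left out they ranged from 0 to 538 for KO against WT, from 26 to 964 for KO+cJun against KO and from 3 to 17 for KO+cJun against WT, and from 0 to 34 for the day, with the highest count in each reached without KO day 30 replicate 1 (for KO+cJun against WT also without KO day 30 replicate 2). Library weights gave 0, 41 and 91 genes for the 3 genotype contrasts, and fits on only the libraries compared gave 6, 11 and 68. The main fit used 1 spread per gene for all 6 groups, although the KO replicates were less alike. The weights were 0.32 to 0.40 for KO libraries and 1.16 to 2.03 for the others. The part of this shared spread in the counts was not tested. With the replicate number as a block the counts were 2, 139 and 5. The labels do not say whether the numbers pair the samples. Replicate differences correlated between groups at -0.21 to 0.26, with 1 of 15 pairs above 0.1. These low values show little pairing but cannot exclude it. The unknown depth limits what can be said of genes near the lowest value of 11. These include TNC, and MXRA5 in KO+cJun at day 30 (24 and 20).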

Other observations

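The following genes were chosen after their values were seen and carry no test of their pattern. The genes at least 2-fold higher in KO than in both WT and KO+cJun on both days, without overlap of libraries, included ADAMTS8, ALCAM, CYP1B1, DPY19L1, FADD, LGR4, LMX1B, MAMLD1, MMRN1, PCSK6 and SLC6A17. ALCAM, an immunoglobulin adhesion molecule of growing axons, was 115, 94, 176 and 186 in WT, 273, 194, 428 and 491 in KO, and 48, 66, 75 and 74 in KO+cJun, so that, like DPY19L1, it ended below WT on average. PCSK6, a protease that processes secreted precursors, was 66 to 112 in WT, 148 to 378 in KO and 30 to 98 in KO+cJun.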
